A study of Mus musculus with 4 samples.

Results

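The genes described here encode receptors and SMAD proteins of the BMP and TGF-β pathways. They were chosen by name, as 10 gene symbols in a table of 23920 genes, and all 10 were found: the receptor genes *Acvrl1*, *Bmpr1a*, *Bmpr2*, *Tgfbr1* and *Tgfbr2*, and the SMAD genes *Smad1*, *Smad3*, *Smad5*, *Smad6* and *Smad7*. RNA sequencing was performed on 4 libraries of cultured mouse bone marrow-derived macrophage-like cells (BMMs), 1 per condition, to find genes that depend on STAT5 when IL-3 restrains osteoclast formation. *Stat5* fl/fl cells, in which *Stat5a* and *Stat5b* carry loxP sites but stay intact, were cultured in M-CSF (30 ng/mL) only, in M-CSF plus RANKL (100 ng/mL), or in both plus IL-3 (1 ng/mL). *Stat5* cKO cells, which carry the floxed genes and Mx1-Cre, received the same 3 cytokines at these doses. M-CSF was thus present in all cultures, and the libraries are called M-CSF, RANKL, RANKL/IL-3 and cKO below.

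The labels give male C57BL/6 mice aged 8 weeks and 24 h of culture, while the methods state a younger age for osteoclast cultures. The Mx1 promoter responds to type I interferon and is not limited to osteoclast precursors. Mice of both genotypes had received poly I:C, an interferon inducer, as pups. The number of mice behind each library is not given in the sources used here. As each condition has 1 library, a difference describes 2 libraries, has no replicate check, and carries no p-value.

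TGF-β and BMP ligands bind pairs of type II and type I receptor kinases. The type II receptor phosphorylates the type I receptor, which then phosphorylates receptor-regulated SMADs. SMAD2 and SMAD3 serve mainly TGF-β and activin, SMAD1, SMAD5 and SMAD9 serve mainly BMPs, and both groups enter the nucleus with SMAD4. SMAD6 and SMAD7 inhibit the pathway and are themselves induced by it. In bone, TGF-β is released from the matrix during resorption and acts on osteoclast precursors, and *Id* genes are textbook targets of BMP signaling.

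Values are FPKM, that is, fragments scaled to transcript length and to the mapped fragments of the library, summed over the transcripts of a gene. Because FPKM is per length, levels can be set side by side between genes. Differences are given on the scale log2(FPKM + 1), which understates those of low genes, and a gene enters a count of higher or lower genes when 2 libraries were at least 2-fold apart on that scale, over 10762 genes with at least 1 FPKM in a library. The depth was estimated at 33 to 36.8 M fragments per library. The ± values beside a difference are approximate 95% half-widths for counting error at that depth. They leave out variation between cultures and mice and, for genes with several transcripts, the error of dividing fragments between them. The median difference over all genes tested was 0.14 for the RANKL comparison (RANKL against M-CSF), -0.15 for the IL-3 comparison (RANKL/IL-3 against RANKL) and 0.13 for the genotype comparison (cKO against RANKL/IL-3), and these shifts were left in.

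Both targeted genes followed the genotype label. *Stat5a* was between 9.89 and 12.0 FPKM in the fl/fl libraries and at 0.17 FPKM in cKO, and *Stat5b* was between 7.80 and 10.8 FPKM and at 0.19 FPKM. The cell type given for every sample is osteoclast, while the title of the M-CSF sample calls it a precursor. The 10 osteoclast markers summed to 45.9 (M-CSF), 1277 (RANKL), 141.1 (RANKL/IL-3) and 518.2 FPKM (cKO), and the calcitonin receptor gene *Calcr* was listed at 0 in every library. Of the 8 that passed the minimum, 7 were higher in the RANKL, 7 lower in the IL-3 and 5 higher in the genotype comparison. Of 10 macrophage markers, 9 were lower with RANKL, 6 were higher with IL-3 and 4 were lower in cKO. Of 8 dendritic cell markers 5 passed the minimum, of which 1 was lower with RANKL, 4 were higher with IL-3 and 4 were lower in cKO, and the 8 summed to 181.5, 124.3, 613.2 and 139.8 FPKM in M-CSF, RANKL, RANKL/IL-3 and cKO. Of 5 neutrophil markers measured, 0 were 2-fold apart in the first and second comparison and 1, *Elane*, was lower in cKO, and their levels together were highest in M-CSF and lowest in RANKL. The 9 endothelial markers, of which 2 passed the minimum, summed to 6.30, 2.05, 2.89 and 2.69 FPKM in the same order of libraries. Markers of T and B cells (summed levels 0.34 to 1.503 FPKM, with *Cd3e* and *Cd3g* at 0), of stromal cells and osteoblasts (1.63 to 2.33 FPKM, with *Sp7* and *Alpl* at 0) and of mast cells and basophils (1.12 to 3.19 FPKM, with *Fcer1a* at 0) were low in every library. Of the last list 2 passed the minimum. *Gata2*, at 0.26, 2.15, 0.59 and 2.75 FPKM in the same order of libraries, was higher with RANKL and in cKO. *Mcpt8*, at 0.27, 0, 1.61 and 0.41 FPKM, was higher with IL-3 and passed through the RANKL/IL-3 library alone.

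Of the 10 receptor and SMAD genes, 9 passed the minimum of 1 FPKM. With RANKL, 3 of these 9, *Acvrl1*, *Tgfbr2* and *Smad6*, were at least 2-fold lower than with M-CSF, and 0 were higher, where 6.88% of all genes tested were lower and 5.44% higher, 12.3% in all. Adding IL-3 to RANKL went with higher levels of 2, *Acvrl1* and *Tgfbr2*, where 6.11% of all genes were higher, 3.47% lower and 9.58% either, and 0 were lower. In cKO cells 1, *Acvrl1*, was lower than in *Stat5* fl/fl cells with the same cytokines, where 4.28% of all genes were lower, 2.11% higher and 6.39% either, and 0 were higher. The median difference of the 9 genes was -0.68, 0.10 and -0.15 in the 3 comparisons. Neighbouring comparisons share a library, so an increase in one and a decrease in the next are not independent.

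**Figure D1:**
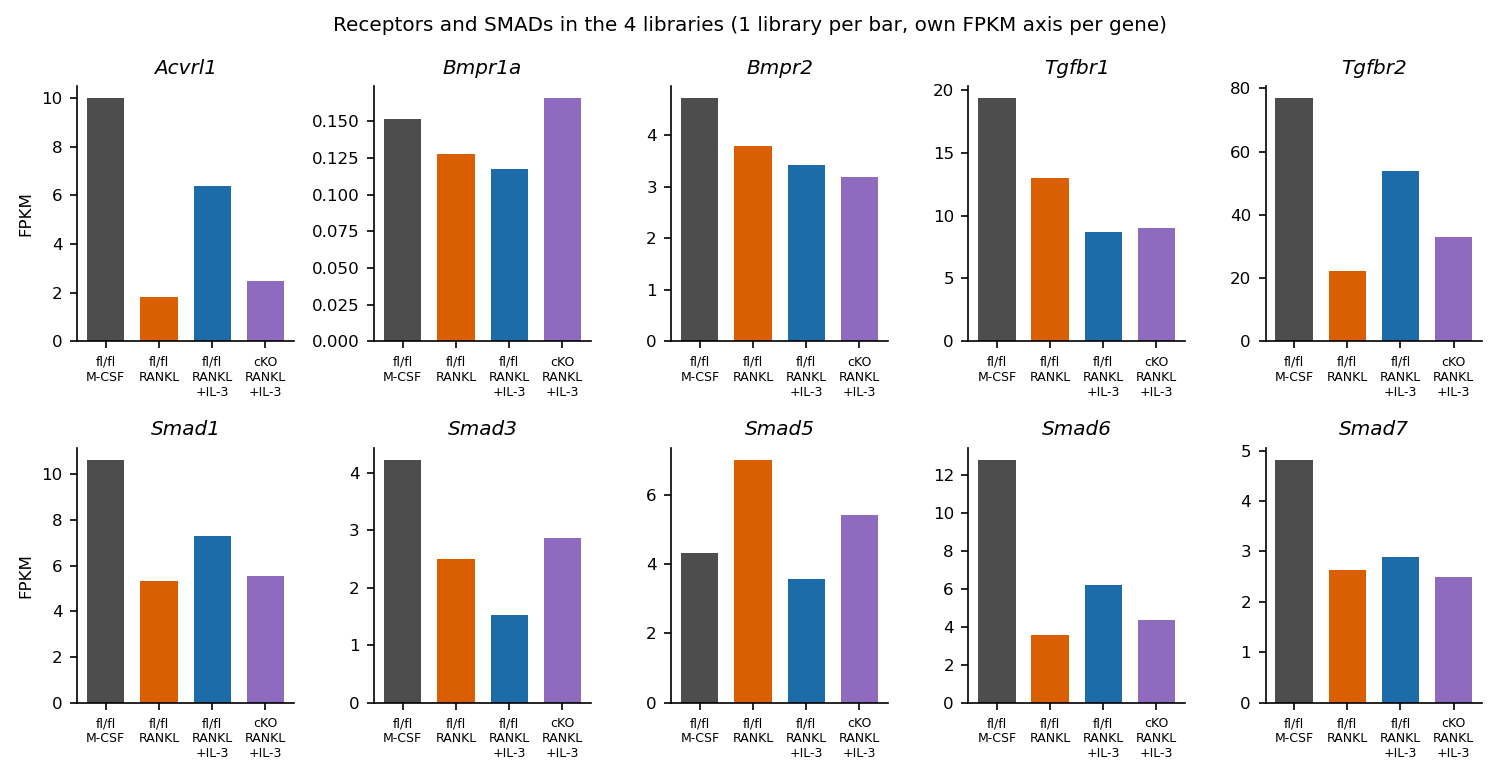
FPKM (vertical axis, a separate scale for each gene) of the 10 genes in the 4 libraries (horizontal axis), with 1 library per bar and no error bars because each condition has 1 library. *Acvrl1*, *Tgfbr2*, *Smad1* and *Smad6* run from M-CSF through RANKL/IL-3 and cKO down to RANKL, whereas *Smad5* is highest with RANKL at 7.005 FPKM.

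*Tgfbr2*, the type II receptor that binds TGF-β, was the most abundant of the 10 genes in every library. It stood at 76.9 (M-CSF), 22.3 (RANKL), 53.9 (RANKL/IL-3) and 33.0 FPKM (cKO). The RANKL library was thus the lowest and the M-CSF library the highest, with both IL-3 libraries between them. On the log2 scale the difference was -1.74 ± 0.05 in the RANKL, 1.23 ± 0.05 in the IL-3 and -0.69 ± 0.05 in the genotype comparison, and the last is under 2-fold. RANKL/IL-3 recovered 57.8% of the drop from M-CSF to RANKL, and the cKO library stood 19.6% of the drop above the fl/fl library with RANKL. The summed levels of the macrophage markers (8484 to 22888 FPKM), the neutrophil markers (104.6 to 161 FPKM) and the endothelial markers had the same order of libraries, and that of the osteoclast markers had the reverse order. In bulk RNA, fewer cells of a type and less RNA per cell cannot be told apart, and the part of these cells in the levels was not tested.

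*Tgfbr2* has 2 RefSeq transcripts in the table, and they kept nearly the same proportion throughout. The more abundant transcript made up 71.5% (M-CSF), 72.0% (RANKL), 70.9% (RANKL/IL-3) and 72.1% (cKO) of the gene. The difference for RANKL was -1.71 for the major and -1.66 for the minor transcript, and that for IL-3 was 1.20 for both.

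*Acvrl1* encodes ALK1, a type I receptor for BMP9 and BMP10 that is best known from endothelial cells. Its levels were 9.998 (M-CSF), 1.83 (RANKL), 6.39 (RANKL/IL-3) and 2.49 FPKM (cKO). These values spanned 5.47-fold from the highest to the lowest library, the widest range of the 10 genes. The differences were -1.96 ± 0.14 in the RANKL, 1.38 ± 0.15 in the IL-3 and -1.08 ± 0.14 in the genotype comparison. *Acvrl1* was therefore the gene of this group that was 2-fold apart in all 3 comparisons. RANKL/IL-3 recovered 55.8% of the drop, and cKO stood 8.07% of it above RANKL. Of the endothelial markers, *Kdr*, a VEGF receptor gene, was at 3.75 FPKM in M-CSF and 0.65 in RANKL, while *Tek* and *Cldn5* reached at most 0.0213 FPKM in any library. *Kdr* was at 1.19 FPKM in RANKL/IL-3 and 1.41 FPKM in cKO. Levels of *Cdh5*, *Tek* and *Cldn5* were also higher in cKO than in RANKL/IL-3. Those of *Vwf*, *Esam*, *Emcn*, *Pecam1* and *Tie1* were lower. Each of these differences was within 2-fold on the log2(FPKM + 1) scale. Apart from *Kdr* and *Cdh5*, these markers were below 1 FPKM in every library, where that scale cannot reach 2-fold. In FPKM, *Vwf* was at 0.43 in RANKL/IL-3 and 0.18 in cKO, *Tie1* at 0.035 and 0.014, and *Cldn5* at 0 and 0.0213. The endothelial markers summed to 2.89 FPKM in RANKL/IL-3 and 2.69 FPKM in cKO. The part of endothelial cells in the *Acvrl1* levels was not tested.

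Unlike *Tgfbr2*, the listed levels of the *Acvrl1* transcripts did not keep one proportion. About 226 (RANKL) to 1178 fragments (M-CSF) of this gene were divided among 5 transcripts. The error of that division was not estimated, so a change in proportion cannot be told from it. The most abundant of 5 transcripts made up 68.6% (M-CSF), 86.8% (RANKL), 78.7% (RANKL/IL-3) and 97.9% (cKO) of the gene. The second transcript stood at 1.59, 0.16 and 0.40 FPKM in the fl/fl libraries in this order and was listed at 0 in cKO. The third stood at 1.15, 0.001 and 0.86 FPKM, and at 0.05 FPKM in cKO. On the major transcript alone the difference for cKO was -0.81, below the 2-fold limit, so this call rests on the summed transcripts.

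**Figure D2:**
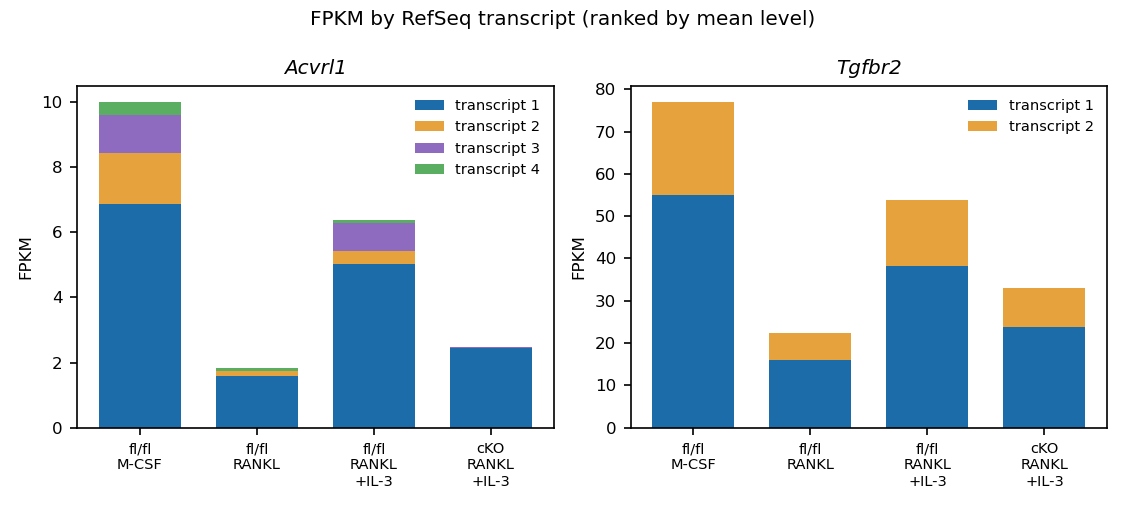
FPKM (vertical axis) of *Acvrl1* and *Tgfbr2* in the 4 libraries (horizontal axis), stacked by RefSeq transcript in order of mean level, with 1 library per bar. The fifth transcript of *Acvrl1*, below 0.01 FPKM throughout, is not drawn. The major transcript of *Tgfbr2* stays between 70.9% and 72.1% of the gene, while that of *Acvrl1* ranges from 68.6% to 97.9%. The error of dividing fragments between transcripts was not estimated.

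The other receptors varied less or in another way. *Tgfbr1* encodes ALK5, the type I partner of TGFBR2, and stood at 19.3 (M-CSF), 13.003 (RANKL), 8.69 (RANKL/IL-3) and 8.99 FPKM (cKO). It was lower with RANKL (-0.54 ± 0.07) and lower again, not higher, when IL-3 was added (-0.53 ± 0.08). Each step was within 2-fold, and the libraries with IL-3 of the 2 genotypes differed by 0.04 ± 0.08, within counting error. The 2 receptors that signal together for TGF-β were thus unequal in their courses: with IL-3 *Tgfbr2* was higher and *Tgfbr1* lower than with RANKL alone.

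*Bmpr2*, the type II receptor for BMPs, had the narrowest range of the 9 genes that passed the minimum, 1.48-fold. It was at 4.72 (M-CSF), 3.79 (RANKL), 3.42 (RANKL/IL-3) and 3.19 FPKM (cKO), and its difference was -0.26 ± 0.08 for RANKL and within 0.12 in the next 2 comparisons. *Bmpr1a*, the type I BMP receptor ALK3, lay between 0.12 and 0.17 FPKM. This corresponds to about 26 to 36 fragments per library and is below the minimum, so no call was made for it. Among the BMP type I receptors of the pathway lists, *Acvr1*, which encodes ALK2, was instead the abundant one, at 14.0, 22.2, 11.3 and 21.0 FPKM in that order, and *Bmpr1b* reached at most 0.0811 FPKM. *Acvr1* was named after its values were seen.

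*Smad6*, the inhibitor that acts mainly on the BMP branch, stood at 12.8 (M-CSF), 3.59 (RANKL), 6.18 (RANKL/IL-3) and 4.38 FPKM (cKO). It was the SMAD gene with the widest range, 3.56-fold, with M-CSF well above the other libraries. The difference was -1.59 ± 0.14 for RANKL. IL-3 went with a higher level (0.64 ± 0.15) and cKO with a lower one (-0.42 ± 0.14), both within 2-fold. *Smad6* recovered 28.1% of its drop with IL-3, a smaller part than *Tgfbr2* or *Acvrl1*, and still lay 2.07-fold below M-CSF in FPKM.

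*Smad7*, the inhibitor of both branches, was at 4.82 (M-CSF), 2.62 (RANKL), 2.88 (RANKL/IL-3) and 2.49 FPKM (cKO). It was lower with RANKL by a difference of -0.68 ± 0.14, under 2-fold. The 3 libraries with RANKL lay close together: IL-3 against RANKL differed by 0.10 ± 0.14, within counting error, and cKO against fl/fl by -0.15 ± 0.14.

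The upstream sequences of *Smad6* and *Tgfbr2* are shown because they are the genes at least 2-fold lower with RANKL for which a RefSeq window was at hand. No window of *Acvrl1* or *Smad7* was searched. Windows of 300 bases, 250 before and 50 from the transcript start on, were used for 8 of the 10 genes (11 windows, GRCm38.p6). They were searched on both strands for the palindromic SMAD-binding element GTCTAGAC, the GC-rich SMAD-binding letters GGAGCC and GGCGCC, the STAT core TTCNNNGAA, the AP-1 core TGANTCA and the short SMAD core GTCT, which overlaps the palindrome. Capitals mark GTCTAGAC and GGAGCC, and the GTCTAGAC of *Smad6* spans the start site, from base -4 to base 4, so 10 bases from the start on are included there. The *Smad6* window is chr9:64022050-64022309 and that of *Tgfbr2* chr9:116175364-116175613, both on the minus strand.
Smad6: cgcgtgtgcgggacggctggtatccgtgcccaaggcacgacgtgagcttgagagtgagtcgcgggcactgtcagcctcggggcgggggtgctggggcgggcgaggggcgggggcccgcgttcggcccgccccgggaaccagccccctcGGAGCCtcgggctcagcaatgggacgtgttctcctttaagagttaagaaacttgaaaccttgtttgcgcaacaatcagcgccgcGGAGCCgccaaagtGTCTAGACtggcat
Tgfbr2: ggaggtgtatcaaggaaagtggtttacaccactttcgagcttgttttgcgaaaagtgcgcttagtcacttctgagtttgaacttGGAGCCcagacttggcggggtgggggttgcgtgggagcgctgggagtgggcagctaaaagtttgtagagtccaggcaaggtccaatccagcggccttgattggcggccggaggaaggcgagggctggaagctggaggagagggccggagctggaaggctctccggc

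Of the 11 windows, GTCTAGAC was present in 1, that of *Smad6*, and in 0.213% of the 32851 windows of this length that were searched. These are called all windows below, although the windows of 1 chromosome had been left out. Whether *Acvrl1* and *Smad7* have the letters was not looked at. GGAGCC was present in 5 of the 11 (*Smad5*, *Smad6*, *Tgfbr1* and *Tgfbr2*) and in 30.8% of all windows. GGCGCC was in 5 of the 11 (*Bmpr1a*, *Bmpr2*, *Smad5* and *Tgfbr1*) and in 11.9%, and GTCT in 8 and in 88% of all windows. *Smad5* has 3 of the windows and *Tgfbr1* has 2, and windows of a gene can overlap. TTCNNNGAA and TGANTCA were in 0 of the 11, and in 8.3% and 7.81% of all windows. A match describes letters and is not a bound site, and no match says only that the letters are not in this window.

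The SMADs that carry the signal did not share one course. *Smad1*, a SMAD of the BMP branch, was at 10.6 (M-CSF), 5.34 (RANKL), 7.29 (RANKL/IL-3) and 5.55 FPKM (cKO). Its difference for RANKL, -0.88 ± 0.13, was just under 2-fold, and it passed 2-fold with libraries scaled to a common median. It was followed by 0.39 ± 0.13 with IL-3 and -0.34 ± 0.13 in cKO, and the cKO library differed from fl/fl with RANKL by 0.05 ± 0.14, within counting error.

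*Smad5*, which serves the same ligands as *Smad1*, ran the other way. It stood at 4.31 (M-CSF), 7.005 (RANKL), 3.55 (RANKL/IL-3) and 5.40 FPKM (cKO). It was the single gene of the 9 that was higher with RANKL (0.59 ± 0.10), and it had the opposite sign with IL-3 (-0.81 ± 0.10) and again a positive one in cKO (0.49 ± 0.10), each within 2-fold. With RANKL, *Smad5* was thus above *Smad1* in FPKM, whereas in the other libraries *Smad1* was above *Smad5*, in cKO by 5.55 against 5.40 FPKM. The major transcript made up at least 95.1% of *Smad5* in each library.

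*Smad3*, the TGF-β and activin SMAD among the 10, had 4.23 (M-CSF), 2.51 (RANKL), 1.53 (RANKL/IL-3) and 2.88 FPKM (cKO). The lowest library was that with RANKL and IL-3, as for *Smad5* and *Tgfbr1*. The differences were -0.58 ± 0.13 in the RANKL, -0.47 ± 0.14 in the IL-3 and 0.62 ± 0.14 in the genotype comparison, all within 2-fold. *Smad3* and *Smad6* lie 195081 bp apart on chromosome 9 of GRCm38 and on the same strand, *Smad3* from 63646767 to 63757994 and *Smad6* from 63953076 to 64022059. They were both lower with RANKL and differed in sign for IL-3 and for cKO. Of SMADs outside the 10 genes, *Smad2* was at 5.53 to 6.07 FPKM and *Smad4*, the common partner, at 14.1 to 15.6 FPKM, and *Smad9* did not exceed 0.06 FPKM. *Smad2* and *Smad4* were thus nearly level across the 4 libraries.

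**Figure D3:**
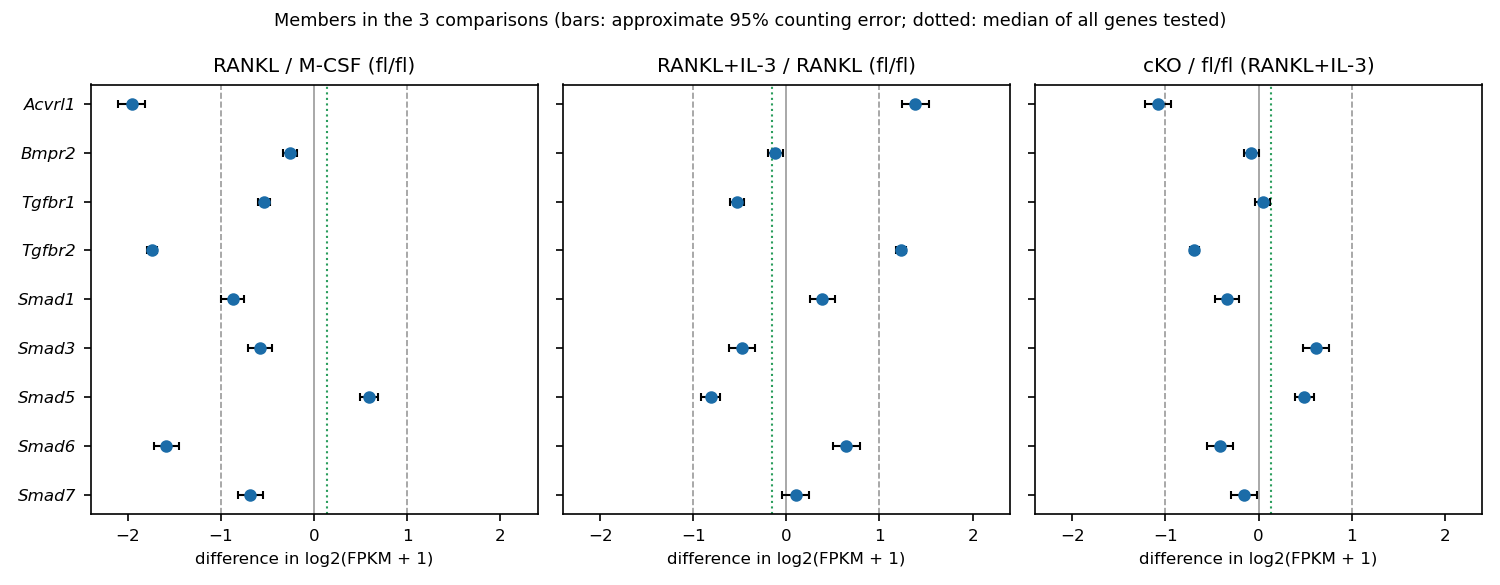
Differences in log2(FPKM + 1) (horizontal axis) of the 9 genes that passed the minimum (vertical axis) in the 3 comparisons. Points are differences between 2 libraries, bars are approximate 95% half-widths for counting error alone, dashed lines mark 2-fold and the dotted line the median of all genes tested. *Acvrl1* is beyond the dashed lines in all 3 panels at -1.96, 1.38 and -1.08, and *Smad5* has the opposite signs at 0.59, -0.81 and 0.49.

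Set against M-CSF, the library with RANKL and IL-3 was lower for all 9 genes that passed the minimum, with differences from -1.07 to -0.22 and a median of -0.57, where the median of all genes tested was -0.003. *Tgfbr1* (-1.07 ± 0.07) and *Smad3* (-1.05 ± 0.13) were at least 2-fold lower, 2 of 9, where 1.42% of all genes were lower, 2.5% higher and 3.92% either. *Smad6* followed at -0.94 ± 0.12, and *Acvrl1* and *Tgfbr2* stood at -0.57 ± 0.11 and -0.51 ± 0.04. The cKO library with IL-3 was within 2-fold of the fl/fl library with RANKL alone for all 9 genes, where 1.28% of all genes were 2-fold apart, 0.929% higher and 0.353% lower. Genotype and IL-3 both differ between these libraries and cannot be told apart. The gene furthest above 0 there was *Tgfbr2* (0.55 ± 0.06) and the one furthest below was *Tgfbr1* (-0.49 ± 0.08).

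Other genes of the pathway were described by lists, with the background shares above as reference. Of 14 ligand genes, 5 passed the minimum, and 1, *Gdf15*, was lower with RANKL. With IL-3, 3 of them were higher than with RANKL: *Tgfb1* at 70.7 and 150.4 FPKM, *Gdf15*, a stress-induced ligand of the family, at 0.40 and 6.15 FPKM (3.24 in M-CSF), and *Inhba*, which encodes the activin A subunit, at 0.16 and 1.63 FPKM. In cKO, *Gdf15* (1.18 FPKM) and *Inhba* (0.10 FPKM) were lower, whereas *Tgfb1* (95.2 FPKM) was within 2-fold of the fl/fl library. *Inhba* passed the minimum through the RANKL/IL-3 library alone, where it was high, so its calls for IL-3 and for cKO rest on that library. *Tgfb1* was by far the most abundant ligand gene, at 126 FPKM in M-CSF, while none of *Bmp2*, *Bmp4*, *Bmp6* and *Bmp7* exceeded 0.50 FPKM in any library.

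Of 13 other receptor and co-receptor genes, 8 passed the minimum, and 2 type II activin receptor genes, *Acvr2a* and *Acvr2b*, were higher with RANKL. *Acvr2a* stood at 1.31 (M-CSF), 4.44 (RANKL), 1.80 (RANKL/IL-3) and 3.38 FPKM (cKO). *Acvr2b* stood at 0.25, 1.499, 0.19 and 0.97 FPKM in that order, so it passed the minimum through the RANKL library alone, and its difference was 1.00, at the threshold. Both were highest in RANKL and next highest in cKO, as *Smad5* was. *Acvr2b* was also lower with IL-3. So was *Cd109*, a TGF-β co-receptor gene, at 7.44 FPKM in RANKL and 2.78 FPKM in RANKL/IL-3, and its level in M-CSF was 3.22 FPKM, just under 2-fold below RANKL on the log2(FPKM + 1) scale.

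Of 18 genes of extracellular antagonists and activators, 9 passed the minimum. The RANKL comparison had 3 higher and 1 lower, the IL-3 comparison 2 higher and 3 lower, and the genotype comparison 2 of each. *Ltbp1*, which encodes a protein that tethers latent TGF-β to the matrix, was at 0.07 (M-CSF), 6.82 (RANKL), 0.19 (RANKL/IL-3) and 2.55 FPKM (cKO). *Itgav*, the αv integrin subunit of receptors that activate latent TGF-β and also of the osteoclast vitronectin receptor, was at 27.3, 68.3, 9.31 and 35.7 FPKM. *Thbs1*, another activator of latent TGF-β, was at 7.49, 47.6, 18.6 and 32.3 FPKM. *Nrros*, whose product holds latent TGF-β on myeloid cells and which the table lists under that symbol, went the other way, at 86.8, 30.4, 89.5 and 40.6 FPKM. *Ltbp1*, *Itgav* and *Thbs1* were thus highest with RANKL, and *Nrros* was lowest with RANKL.

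Of 17 intracellular regulators 16 passed the minimum, and 2 were 2-fold apart in any of the 3 comparisons. *Smurf1*, a ubiquitin ligase that targets SMADs, was at 6.76 FPKM in M-CSF and 17.1 in RANKL. *Pmepa1*, an inhibitor that TGF-β itself induces, was at 8.95 FPKM in RANKL and 3.03 in RANKL/IL-3. The median difference of this list, 0.21, -0.16 and 0.04 in the 3 comparisons, was near that of all genes tested.

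Known target genes of the pathway did not share one direction. Of 16 listed, 12 passed the minimum, of which 3 were higher and 5 lower with RANKL, 6 higher and 3 lower with IL-3, and 2 higher and 2 lower in cKO. *Id3*, a BMP target, was at 126.3 (M-CSF), 28.5 (RANKL), 65.6 (RANKL/IL-3) and 44.2 FPKM (cKO), the order of *Smad6* and *Tgfbr2*. Its differences were -2.11, 1.17 and -0.56, and those of *Id1* were -3.82, 3.79 and -2.34 and of *Id2* -2.44, 3.16 and -2.39. *Tsc22d1* and *Bhlhe40*, which TGF-β induces in other cells, were instead highest with RANKL, at 51.5 and 72.9 FPKM, against 3.38 and 5.38 FPKM in M-CSF.

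**Figure D4:**
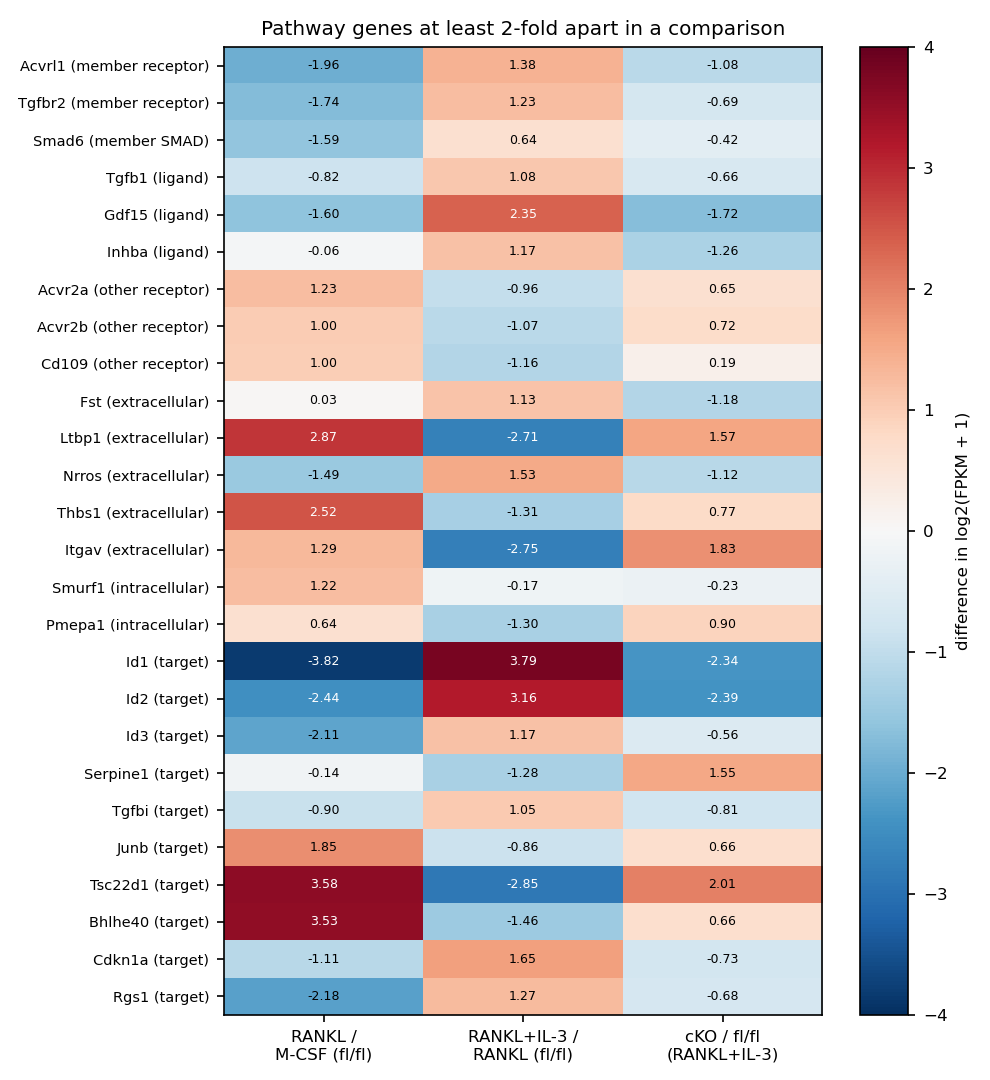
Differences in log2(FPKM + 1) (color and printed value) of the 26 pathway genes at least 2-fold apart in at least 1 of the 3 comparisons (columns), with the list of each gene in brackets. Each value compares 2 libraries. *Tgfb1*, *Nrros* and *Id3* are below 0 with RANKL, above 0 with IL-3 and below 0 in cKO, as are *Acvrl1*, *Tgfbr2* and *Smad6*, while *Ltbp1*, *Itgav* and *Acvr2a* have the opposite signs.

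Genes with the course most like the 3 receptor and SMAD genes that were 2-fold apart were sought among 8135 genes with at least 5 FPKM in a library, predicted and small RNA genes left out, by the Euclidean distance of log2(FPKM + 1) centred on each gene's mean over the 4 libraries. Nearest to *Tgfbr2* were *Tmem106a* (distance 0.05), *Fli1* (0.07) and *Gng2* (0.09). *Fli1*, an ETS transcription factor gene, stood at 19.0, 5.21, 13.3 and 8.31 FPKM in M-CSF, RANKL, RANKL/IL-3 and cKO. Nearest to *Acvrl1* were *Tifa* (0.13), *Lsp1* (0.15) and *Sesn1* (0.16). Nearest to *Smad6* were *Csf1r* (0.05), *Lipa* (0.07) and *Pgm2l1* (0.07). *Csf1r*, the M-CSF receptor gene and one of the macrophage markers, stood at 670.4, 227, 365.5 and 269 FPKM. With 4 libraries, likeness of this kind is a description of the same 4 samples.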

How the data were processed

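Total RNA was used for TruSeq libraries that were sequenced on a HiSeq2000 system. According to the submitters' processing notes, the authors used TopHat2 2.0.13 and Cufflinks 2.2.1 with the build mm10. The deposited table gives 1 value per RefSeq transcript and library, does not name the unit, and was read as FPKM from the software and the values. The options were not given in the sources used here. FPKM were summed per gene ID, small RNA genes recognised by symbol were left out, and genes with at least 1 FPKM in a library (10762) were kept. Depth was estimated from single-transcript genes of at least 3000 nt (GENCODE M21, GRCm38) by searching 20 to 60 M fragments for the value at which FPKM times length falls on whole steps. Between 72.1% and 74.1% of low values then lay within 0.2 steps, where even spacing gives 40%, and the fit to the same values raises this share.

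With 1 library per condition no test was run. The ratio and count steps were tested on simulated libraries. The genes, lists and rules were chosen with earlier results of these data known. Named were the 10 genes, *Stat5a*, *Stat5b*, *Id1*, *Id2*, *Id3*, up to 4 genes of each pathway list with the largest difference among those 2-fold apart, and the 3 genes nearest to each of the 10 that was 2-fold apart. Other genes, among them *Smad2*, *Smad4*, *Smad9*, *Acvr1*, *Bmpr1b*, *Fst*, the BMP ligands, marker genes and the low genes, were named after their values were seen. Alternatives were another pseudocount, scaling, minimum, threshold and transcript choice. Of 159 list entries, 158 were found. Motif letters were searched in RefSeq windows. Python 3.11.15, numpy 2.4.6, pandas 2.3.3 and matplotlib 3.10.9 were used.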

Additional observations from a re-analysis of the deposited data

How the results depend on the processing

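With a pseudocount of 0.1 FPKM, libraries scaled to a common median or upper quartile, a minimum of 5 FPKM and no minimum, the number of genes among the 10 that were at least 2-fold apart stayed within 1.5 times that reported, and *Acvrl1*, *Tgfbr2* and *Smad6* (RANKL), *Acvrl1* and *Tgfbr2* (IL-3) and *Acvrl1* (cKO) were called under each of these. The settings for the minimum could not change these calls. They leave each difference as it was, and *Acvrl1*, *Tgfbr2* and *Smad6* exceed 5 FPKM in M-CSF. Scaling to a common median added *Smad1* for RANKL. With the most abundant transcript of each gene, 0 of the genes were 2-fold apart in cKO. With a 1.5-fold threshold the numbers were 6 (RANKL), 4 (IL-3) and 3 (cKO), and over all genes 3171, 2674 and 1864, against 1325, 1031 and 688 at 2-fold. At 1.5-fold the balance over all genes turned for RANKL (1680 higher, 1491 lower) and IL-3 (1303 higher, 1371 lower), and was 907 higher and 957 lower for cKO. With the median scaling, 454 of all genes were higher and 903 lower for RANKL, against 585 and 740 without it, and 797 were higher and 282 lower for IL-3, against 658 and 373, and 191 were higher and 543 lower for cKO, against 227 and 461. Of 90 differences of the 9 genes that a setting could change (pseudocount, scaling, or transcript where a gene has several), 62 moved by no more than their counting half-width, 28 moved by more and 0 of those called changed sign. Changes of sign occurred in 3, all within 2-fold: *Bmpr2* for IL-3 with median scaling and *Tgfbr1* for cKO with both scalings. With a minimum of 5 FPKM, *Bmpr2*, *Smad3* and *Smad7* were not tested. No paired analysis was possible because each condition has 1 library, and no library could be left out. The depth limits *Bmpr1a*, at 26 to 36 fragments.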
